A study of Mus musculus with 6 samples.

Results

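The genes described here were 38 genes for collagens and for the other main proteins of basement membranes, found by their symbols among the 32285 genes of the count matrix. They comprised 7 fibrillar collagens, 6 collagen IV chains, 4 chains of collagens VI and VIII, 3 FACIT collagens (collagens that lie on the surface of fibrils), 2 multiplexins (collagens that carry heparan or chondroitin sulfate), 2 transmembrane collagens, 9 laminin chains, 2 nidogens, 2 heparan sulfate proteoglycans and fibronectin. Nuclei had been isolated from the flash-frozen forebrains of 6 untreated mice aged 16 postnatal days (P16), of which 3 were WT and 3 were Npc1-/-, and their poly-A RNA was counted by droplet sequencing with unique molecular identifiers (UMIs). Per the study's methods the Npc1-/- mice carried the Npc1 nih allele throughout the body and were F1 hybrids of BALB/cJ and C57BL6/J parents, with WT littermates of the same cross. Npc1 encodes the transporter that moves unesterified cholesterol out of late endosomes and lysosomes.

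Collagens are trimers of chains wound into a triple helix. Fibrillar collagens such as types I, III and V build the tensile fibres of connective tissue, whereas collagen IV forms the network of basement membranes together with a network of laminin, to which nidogens and the proteoglycans perlecan and agrin bind. In brain, basement membranes surround the endothelium and its pericytes, underlie the pia and the end-feet of astrocytes, and support the choroid plexus epithelium, and fibrous matrix is made mainly in the meninges and around larger vessels. Each laminin is a trimer of an alpha, a beta and a gamma chain, and the alpha chain differs between tissues.

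The matrix held 75878 nuclei in 6 libraries, marked by the suffix of each barcode, with 51343653 to 107583300 UMIs and a median of 4469 to 5439 UMIs per nucleus in a library. Which library came from which mouse is not stated in the sources used here, so WT and Npc1-/- were not compared, and the libraries were treated as 6 unlabelled samples. No cell type annotation was used. Nuclei were instead sorted into 13 gates, each a list of 10 marker genes that includes none of the 38 genes. A nucleus entered a gate where it had at least 4 markers of that list and at least 2 more than of any other list, which placed 32967 nuclei (43.4%). These were 1137 nuclei in the fibroblast gate, 441 in the mural gate (mostly pericytes, few smooth muscle), 4059 endothelial, 6925 astrocyte and 3382 oligodendrocyte progenitor (OPC) nuclei. Another 2336 were oligodendrocyte, 171 dividing, 2802 microglia, 519 ependymal and 167 choroid plexus nuclei. The neuronal gates held 4521 excitatory neuron, 2330 inhibitory neuron and 4177 striatal neuron nuclei. The share of a gate's nuclei at its minimum of markers or of lead ran from 18.0% in the endothelial gate to 69.2% in the excitatory neuron gate and was 44.9% in the fibroblast gate. The median fibroblast-gate nucleus had 5 fibroblast markers and 2 astrocyte markers, the median ependymal nucleus 7 of its own and 3 of astrocytes, and the median choroid plexus nucleus 6 of its own and 3 of ependymal cells. The endothelial and mural gates took fewer nuclei from libraries 5 and 6 (288 and 197 endothelial, 27 and 28 mural) than from the other 4 (782 to 1021 and 85 to 122), and results are given below without these libraries where that changed a call. The oligodendrocyte gate also varied in size, from 105 to 776 nuclei in a library. In all, 631 barcode sequences occurred in more than 1 library, on 1264 nuclei.

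The level of a gene in a gate is its UMIs per 1000000 UMIs of that gate (CPM), summed over the 6 libraries, with an exact 95% Poisson interval, and ratios between gates carry an exact 95% interval from the binomial distribution of both counts. These intervals cover counting error only, and no p-values are given because the libraries have no known groups. Levels are compared for 1 gene across gates and not between genes, since capture from nuclei depends on a gene's length and internal priming. Ratios of UMIs between neighbouring collagen IV genes are likewise read only across gates. A gene was called highest in a gate where its level was at least 2-fold that of every other gate and the interval of its ratio to the next gate lay above 1.

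All 38 genes had at least 10 UMIs over the gates, and 17 of them (44.7%) were called highest in a gate, beside 16.3% of the 23815 genes with that many UMIs. The 38 genes and the gates were chosen with earlier results of these data known. Their UMIs over the gates ran from 506 (Col6a3) to 32566 (Col25a1), and the shares over all genes tested were not matched for UMIs. The fibroblast gate accounted for 10 of the 38 (26.3%, beside 1.49% of all genes tested). These were Col1a1, Col1a2, Col3a1, Col5a1, Col4a6, Col6a2, Col6a3, Col12a1, Col23a1 and Lama1. Another 4 were called in the choroid plexus gate (10.5%, beside 1.82% of all genes tested), namely Col4a3, Col4a4, Col8a1 and Col9a3. Col5a3 and Lama3 were called in the ependymal gate (5.26%, beside 3.35%), and Fn1 in the endothelial gate (2.63%, beside 1.63%). No member was called in the mural gate (0.554% of all genes tested) or in the 8 remaining gates, where the shares of all genes tested were 0.894% for astrocytes, 0.197% for OPCs, 1.52% for oligodendrocytes, 1.63% for dividing nuclei, 1.77% for microglia, 0.227% for excitatory, 0.437% for inhibitory and 0.739% for striatal neurons. Each of the 17 called genes had the same highest gate in 6 of 6 libraries. The calls rest on the sum of these same libraries, so this is not independent of them, and the share over all called genes was not computed. Relative to all other gated nuclei, 33 of the 38 genes were higher in the fibroblast gate, with a median of 1.85 on the log2 scale. The median over all genes tested was 0.24, so that most of these were also higher there. That median was 1.21 in the endothelial gate and 1.03 in the mural gate (0.04 and 0.18 over all genes tested), and it was lowest, at -1.77, in excitatory neurons (-0.48 over all genes tested). On these sums each gene spanned at least 5.68-fold between its highest and its lowest gate.

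**Figure D1:**
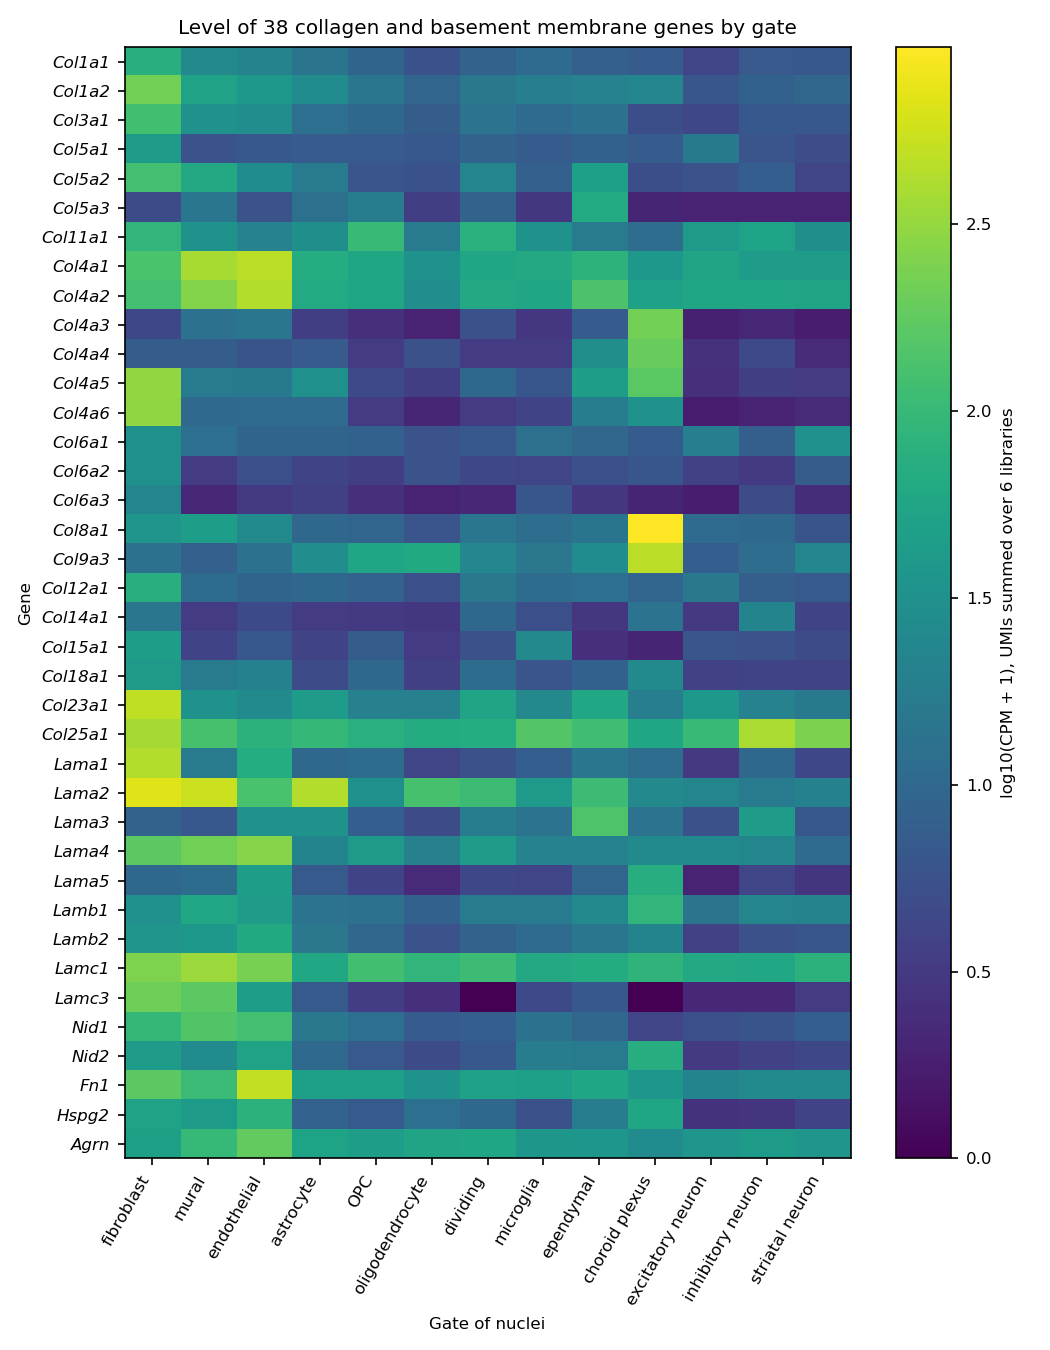
Heat map of 38 collagen and basement membrane genes (rows) in 13 gates of nuclei (columns); colour is log10(CPM + 1) of UMIs summed over 6 libraries, each gene on the same colour scale. Of the 7 fibrillar collagens all but Col5a3 (ependymal) and Col11a1 (OPC) are brightest in the fibroblast column; the brightest cells of Col4a1, Col4a2 and Fn1 lie in the endothelial column and those of Col4a3, Col4a4, Col8a1 and Col9a3 in the choroid plexus column.

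The 6 collagen IV chains are encoded by 3 pairs of neighbouring genes that are read in opposite directions from adjacent start sites, and each pair had its own pattern over the gates. Col4a1 (ENSMUSG00000031502) lies on the minus strand at chr8:11198423-11312826 and Col4a2 (ENSMUSG00000031503) on the plus strand at chr8:11312805-11449287 in GRCm38, so that their first exons overlap by 22 bases. Col4a4 (ENSMUSG00000067158, minus strand, chr1:82448423-82586849) and Col4a3 (ENSMUSG00000079465, plus strand, chr1:82586921-82722059) start with 71 bases between them. Col4a6 (ENSMUSG00000031273, minus strand, chrX:141165403-141474076) and Col4a5 (ENSMUSG00000031274, plus strand, chrX:141475385-141689234) have 1308 bases between their start sites. The stretches at the starts are printed from RefSeq promoter windows of GRCm38.p6, 5′ to 3′ on the plus strand, because each pair of genes shares or adjoins them; capitals mark the letters GGGCGG (a GC box, the site of Sp-family factors) or CCAAT, searched on both strands together with TATAAA.
Col4a1/Col4a2 start overlap, chr8:11312805-11312826: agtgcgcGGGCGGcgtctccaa
Col4a4/Col4a3 between starts, chr1:82586850-82586920: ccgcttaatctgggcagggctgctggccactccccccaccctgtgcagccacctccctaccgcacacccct
Col4a6 upstream, chrX:141474077-141474326: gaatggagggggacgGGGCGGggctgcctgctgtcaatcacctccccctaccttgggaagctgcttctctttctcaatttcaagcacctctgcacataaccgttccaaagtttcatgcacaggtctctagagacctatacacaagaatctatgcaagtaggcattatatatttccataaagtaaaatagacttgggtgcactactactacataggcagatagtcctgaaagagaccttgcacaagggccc
Col4a5 upstream, chrX:141475169-141475384: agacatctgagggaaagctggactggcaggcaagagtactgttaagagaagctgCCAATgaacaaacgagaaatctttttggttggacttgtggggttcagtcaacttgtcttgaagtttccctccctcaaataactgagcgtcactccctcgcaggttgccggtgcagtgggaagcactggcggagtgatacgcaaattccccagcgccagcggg
Each stretch is set beside windows of its own length in 32851 RefSeq promoters. The overlap of Col4a1 and Col4a2 held 1 GGGCGG, as did 4.09% of the promoters in the 22 bases from the start on, and 72.7% of it was G or C, beside a median of 54.5%. The 71 bases between Col4a4 and Col4a3 held none of the 3 motifs, and 69.0% of them were G or C, beside a median of 54.9% in the 71 bases before the start, where 20.7% of promoters had GGGCGG, 13.3% CCAAT and 4.41% TATAAA. The 250 bases before Col4a6 held 1 GGGCGG, as did 32.7% of promoters, with 47.6% G or C beside a median of 52.4%. The 216 bases before Col4a5 held 1 CCAAT, as did 30.8% of promoters, with 52.3% G or C beside a median of 52.8%.

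Col4a1 and Col4a2, whose chains form the collagen IV network of vessel walls and of most basement membranes, were highest in endothelial nuclei. Col4a1 reached 466 CPM in the endothelial gate (lowest library 317, median 469, highest 868), 380 CPM in the mural gate (303, 337 and 843, the last in library 5 with 27 mural nuclei) and 134 CPM in the fibroblast gate (120, 134 and 143). The endothelial and mural ranges overlapped, and the endothelial level was 1.23-fold the mural one (95% interval 1.13 to 1.33) and was the higher of the 2 in 4 of 6 libraries. With a lead of 3 markers the log2 ratio was 0.10 (-0.05 to 0.26). Every library had more Col4a1 in the mural than in the fibroblast gate (2.84-fold, 2.54 to 3.18). Col4a2 was at 427 CPM in the endothelial gate (318, 437 and 709), 261 CPM in the mural gate (214, 280 and 337) and 120 CPM in the fibroblast gate, and its endothelial level was above the mural level in 6 of 6 libraries (1.63-fold, 1.48 to 1.8). UMIs of Col4a1 per UMI of Col4a2 were 1.09 (1.06 to 1.12) in endothelial nuclei, whereas the ratio was 1.45 (1.28 to 1.64) in mural and 0.60 (0.50 to 0.71) in ependymal nuclei, where Col4a2 stood at 139 CPM. Both genes were highest in the endothelial gate in libraries 5 and 6, the libraries with the fewest endothelial nuclei, and lowest in library 4.

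Col4a3 and Col4a4, whose chains join with that of Col4a5 in the collagen IV of kidney and other specialised basement membranes, were highest in the choroid plexus gate. Col4a3 had 208 UMIs in the 167 choroid plexus nuclei, 220 CPM (lowest library 133, median 204, highest 309), and 13.6 CPM in endothelial nuclei, the next gate (10.2, 13.2 and 23.8). The libraries of the 2 gates did not overlap, and the ratio was 16.2 (13.5 to 19.4). Col4a4 had 192 CPM in the choroid plexus gate (147, 178 and 273) and 28.4 CPM in the ependymal gate (12.2, 28.8 and 34.3), a ratio of 6.77 (5.12 to 9.02). Col4a5 was present in the same gate at 161 CPM (110, 179 and 227). UMIs of Col4a5 per UMI of Col4a6 were 5.07 in choroid plexus (3.41 to 7.77) and 1.04 in the fibroblast gate (0.97 to 1.12). With each nucleus thinned to 2000 UMIs, 31.7% of choroid plexus nuclei (24.8 to 39.4) had a UMI of Col4a3 and 37.1% (29.8 to 44.9) a UMI of Col4a4, beside 0.146% and 0.438% of microglia. Unthinned shares were 57.5% and 56.3%, beside 0.749% for each gene in microglia, at a median of 4944 UMIs in choroid plexus and 2629 in microglial nuclei.

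Col4a5 and Col4a6, whose chains meet in the collagen IV of skin, smooth muscle and some other basement membranes, were highest in the fibroblast gate. Col4a6 reached 299 CPM there (lowest library 227, median 285, highest 405), against 31.7 CPM in choroid plexus (17.7, 32.7 and 51.6) and 9.52 CPM in mural nuclei. That was 9.44-fold above choroid plexus (6.58 to 14.1) and 75.7-fold above all other gated nuclei together (69.3 to 82.6), the highest such ratio of the 38 genes in the fibroblast gate. Col4a5 reached 312 CPM (246, 314 and 380). Its ratio to choroid plexus was 1.94 (1.64 to 2.31) in 6 of 6 libraries, just under the fold needed for a call, as was that of Col5a2 to mural nuclei (1.98), and the lowest ratios among the genes called in this gate were those of Col5a1 (2.77) and Col1a1 (2.99). The ratio of Col4a5 to Col4a6 UMIs was 2.98 (2.63 to 3.38) in astrocytes. At 2000 UMIs per nucleus, 33.4% of fibroblast-gate nuclei (30.5 to 36.3) had a UMI of Col4a6, beside 0.535% of microglia (44.2% and 0.999% unthinned, at medians of 3328 and 2629 UMIs), and 1.71% of astrocytes, the type whose markers were the most frequent foreign ones in the fibroblast gate.

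**Figure D2:**
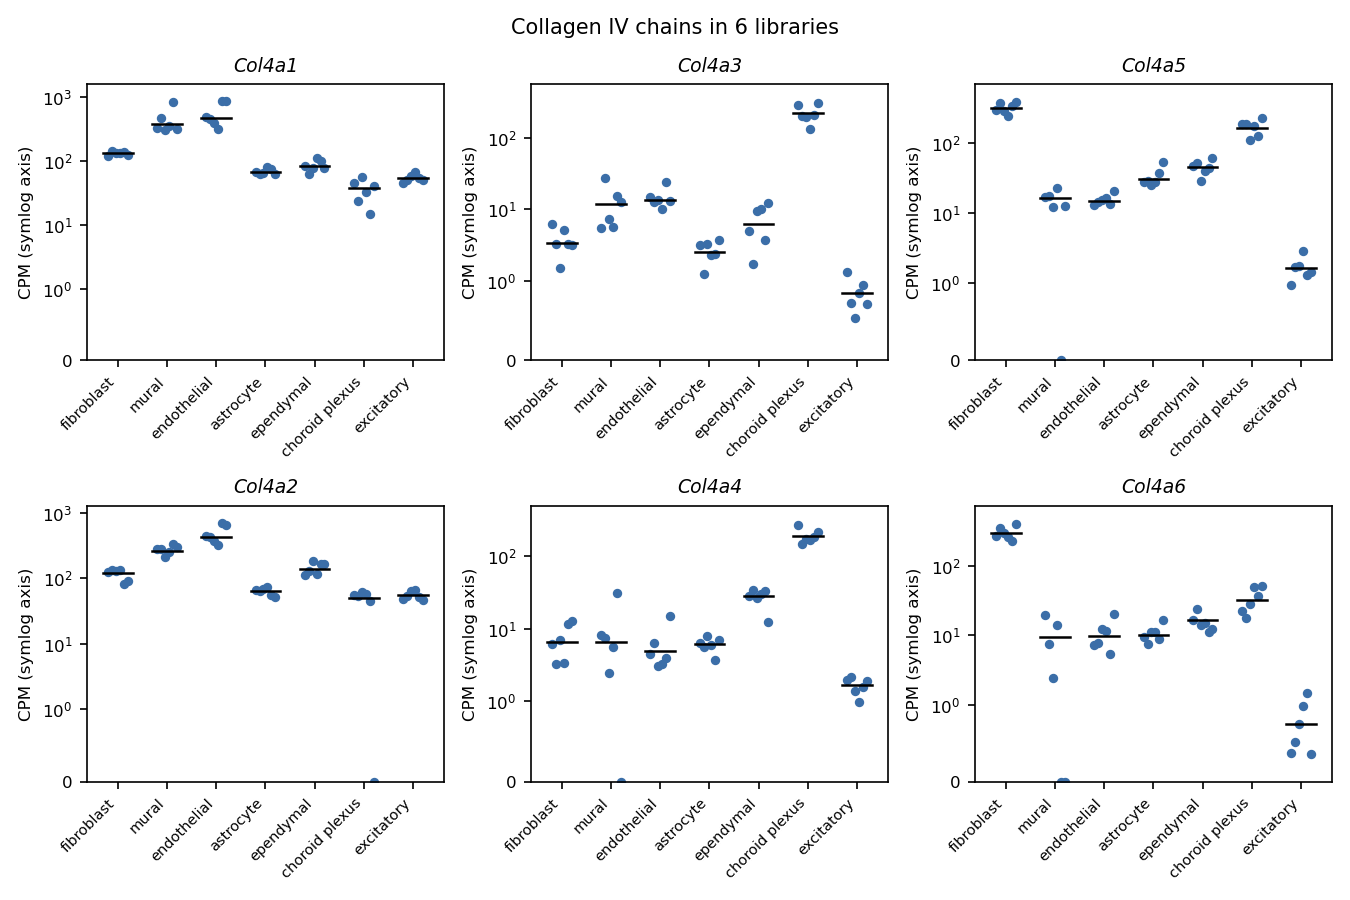
Level of the 6 collagen IV chains in 7 gates, in CPM on a symmetric log axis (linear below 1); each point is 1 of 6 libraries and each bar the sum over libraries. Col4a1 and Col4a2 peak in endothelial and mural nuclei, Col4a3 and Col4a4 in choroid plexus, and Col4a5 and Col4a6 in the fibroblast gate, with Col4a5 also at 161 CPM in choroid plexus.

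Among the laminin alpha chains, Lama1, Lama2, Lama3, Lama4 and Lama5 each had a different order of gates. Lama1, the alpha chain of the embryonic and pial basement membrane, was at 428 CPM in the fibroblast gate (lowest library 305, median 474, highest 531) and at 68.4 CPM in the endothelial gate (32.5, 68.7 and 81.2), with no overlap of libraries and a ratio of 6.26 (5.84 to 6.70). A UMI of Lama1 was seen in 42.5% of fibroblast-gate nuclei (39.5 to 45.6) and 8.95% of endothelial nuclei thinned to 2000 UMIs, beside 1.22% of microglia (52.8%, 15.8% and 1.93% unthinned, at medians of 3328, 3885 and 2629 UMIs). Lama2, the chain lost in a congenital muscular dystrophy, was high in 3 gates. Its levels were 675 CPM in fibroblast (596, 668 and 874), 538 CPM in mural (457, 561 and 726) and 433 CPM in astrocyte nuclei (328, 437 and 605). The 3 ranges overlapped, yet within each library the order fibroblast, mural, astrocyte held in 6 of 6, with a fibroblast level 1.26-fold the mural one (1.16 to 1.35) and a mural level 1.24-fold the astrocyte one (1.16 to 1.33). Where a lead of 3 markers was asked for, the log2 ratio of fibroblast to mural nuclei was 0.09 (-0.05 to 0.23). Astrocytes exceeded endothelial nuclei, at 132 CPM, by 3.29-fold (3.16 to 3.42).

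Lama4 and Lama5 are the endothelial laminin alpha chains. Lama4 was at 271 CPM in endothelial (222, 275 and 371 for lowest, median and highest library), 220 CPM in mural (178, 234 and 414) and 166 CPM in fibroblast nuclei (135, 159 and 187), and the dividing gate came next at 41.9 CPM. Lama5 was at 69.7 CPM in choroid plexus (41.6, 70.9 and 88.6) and at 45.8 CPM in endothelial nuclei (38.6, 47.5 and 65.5), 2 ranges that overlapped, while mural nuclei had 10.1 CPM, 4.53-fold below the endothelial level (2.81 to 7.81). Lama3, an alpha chain of epithelial laminin, was highest in the ependymal gate at 144 CPM (93.1, 160 and 179), which was 3.34-fold its level in inhibitory neurons (2.95 to 3.78) but was not called on the scale of UMIs per nucleus. Inhibitory neurons had 43.0 CPM of Lama3 (29.6, 43.1 and 53.7), 8.01-fold the level in striatal neurons (6.81 to 9.46).

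Lamc1, the gamma chain shared by most laminins, had 339 CPM in mural (lowest library 261, median 314, highest 629), 249 CPM in fibroblast (227, 253 and 290) and 228 CPM in endothelial nuclei (197, 217 and 362), ranges that overlapped. Lamc3, a rarer gamma chain of the pial and retinal basement membranes, had 206 CPM in fibroblast (139, 226 and 280), 165 CPM in mural (123, 182 and 238) and 44.2 CPM in endothelial nuclei (37.3, 47.6 and 54.4), and the highest of the 10 other gates, astrocytes, had 5.91 CPM. Of Lamc3 no UMI was found in choroid plexus or dividing nuclei. In choroid plexus the floor of 3 counts corresponds to 3.17 CPM, which is not an upper bound of the level. Lamb1 was highest in choroid plexus (88.7 CPM) and mural nuclei (58.3 CPM), and Lamb2, the beta chain of mature vessel and synaptic basement membranes, in endothelial nuclei at 62.6 CPM (42.8, 71.0 and 86.7) with 37.5 CPM in mural nuclei.

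**Figure D3:**
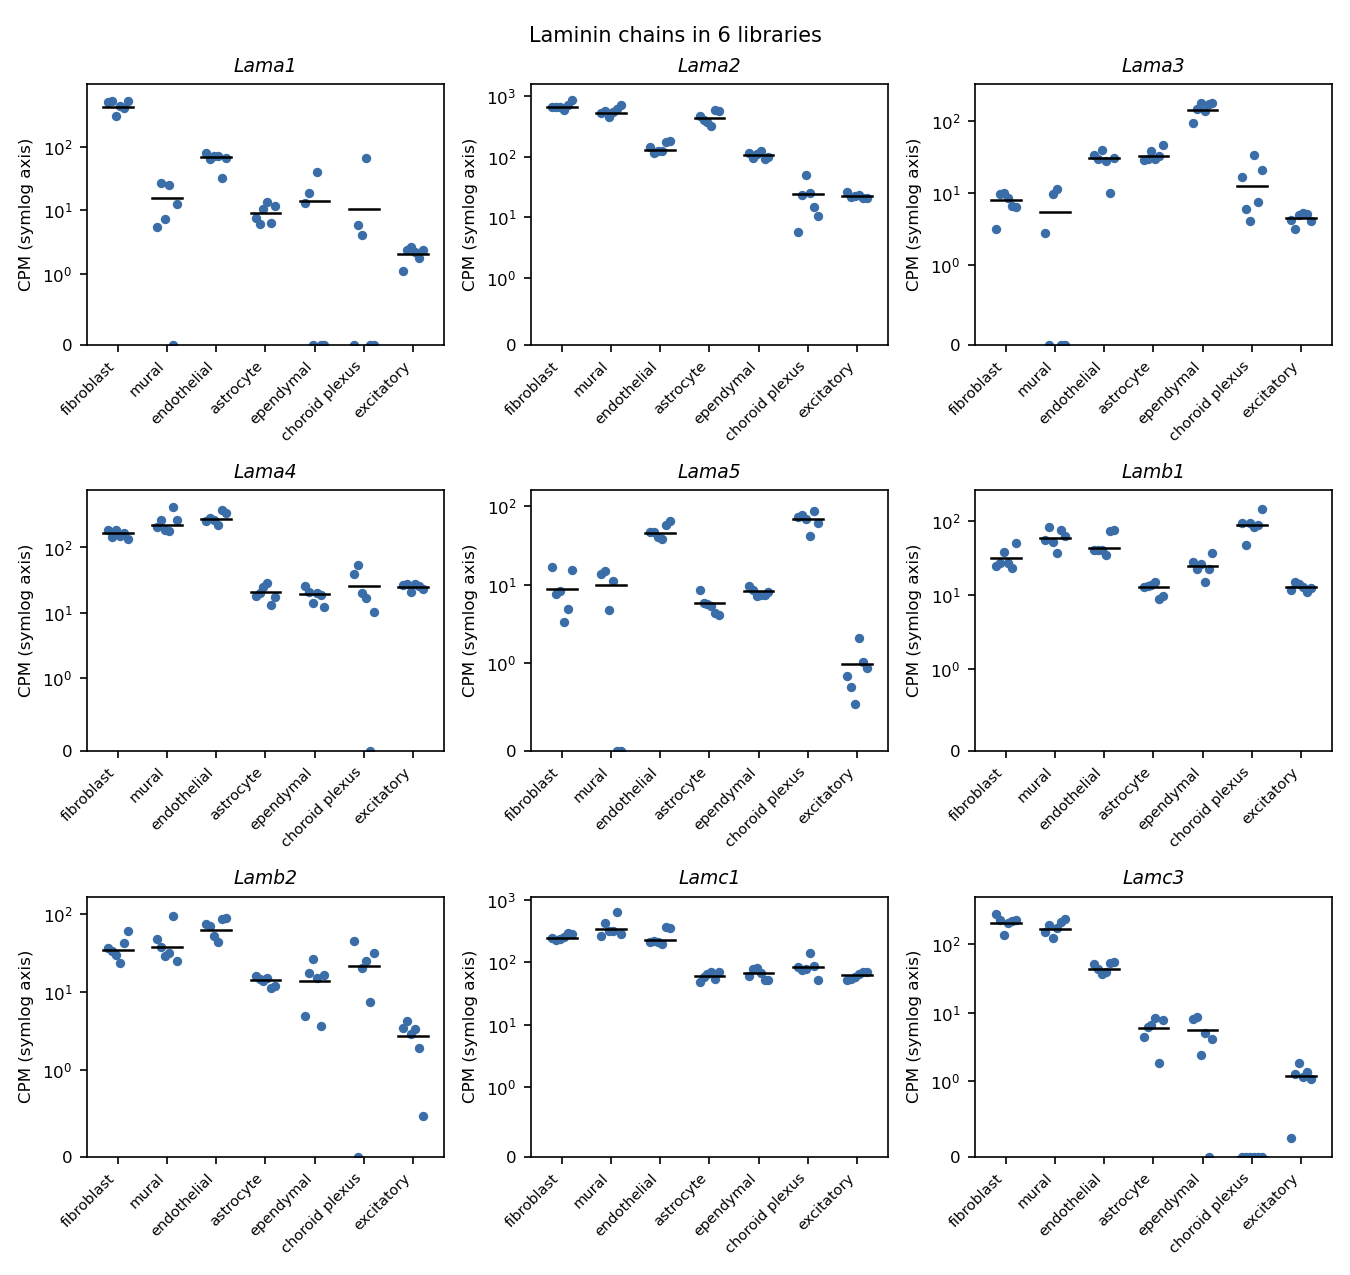
Level of 9 laminin chain genes in 7 gates, in CPM on a symmetric log axis (linear below 1); each point is 1 of 6 libraries and each bar the sum over libraries. Lama1 stands out in the fibroblast gate at 428 CPM, Lama3 in the ependymal gate at 144 CPM, and Lama2 is high in fibroblast, mural and astrocyte nuclei.

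Nid1, Fn1, Hspg2 and Agrn were highest in a vessel gate, and Nid2 in choroid plexus. Nid1, nidogen 1, which ties laminin to collagen IV, had 148 CPM in mural (lowest library 113, median 166, highest 175), 122 CPM in endothelial (86.1, 119 and 239) and 95.6 CPM in fibroblast nuclei (82.2, 102 and 113), and 14.5 CPM in astrocytes, the highest of the other gates. Per nucleus instead of per UMI, endothelial nuclei had more Nid1 than mural nuclei. Nid2 was at 69.7 CPM in choroid plexus (49.9, 72.3 and 94.4) and 50.9 CPM in endothelial nuclei (40.2, 50.7 and 80.2), overlapping ranges with a ratio of 1.37 (1.05 to 1.76), above 1 in 4 of 6 libraries. That interval came to include 1 with TMM scaling and without library 1 or library 2. Fn1, fibronectin, an adhesive glycoprotein of the vessel wall, had 508 CPM in endothelial (429, 492 and 851) and 166 CPM in fibroblast nuclei (116, 174 and 258), with no overlap of libraries and a ratio of 3.06 (2.84 to 3.30). Hspg2 (perlecan) and Agrn (agrin), the heparan sulfate proteoglycans of basement membranes, were also highest in endothelial nuclei, Hspg2 at 80.0 CPM (60.4, 79.4 and 136) and Agrn at 179 CPM (138, 184 and 288). Agrn exceeded its mural level of 98.2 CPM by 1.82-fold (1.56 to 2.14) in 6 of 6 libraries. As for Col4a1 and Col4a2, the library with the highest endothelial level of Lama4, Lamb2, Fn1, Hspg2 and Agrn was library 5 or 6. The lowest was library 4. Library 4 was also lowest for genes led by other gates, among them Col1a2, Col3a1 and Lama2 (fibroblast), Col8a1 (choroid plexus) and Col11a1 (OPC). Other genes differed: in the fibroblast gate Col5a1 was highest in library 4, and Col4a6 lowest in library 5. The highest library in the fibroblast gate was library 6 for Col4a6 and Lama1, and library 2 for Col1a2. Of the 38 genes, 32 differed between highest and lowest library beyond counting error in their highest gate. These 2 libraries were picked as the extremes of 6, which by itself favours such a difference. The share over all genes tested was not computed, so the count is not a trait of these genes. The part of the smaller number of endothelial nuclei in libraries 5 and 6 in these endothelial levels was not tested. Without both libraries the 17 calls were made again and Col5a2 was added in the fibroblast gate, while the intervals of Hspg2 in endothelial over choroid plexus nuclei, Lamb1 in choroid plexus over mural nuclei and Col18a1 in the fibroblast gate over choroid plexus came to include 1.

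Under a rule chosen after the values were seen, 20 of the 38 genes (52.6%) were at least 2-fold higher in the fibroblast, mural or endothelial gate than in each of the other 10 gates, beside 5.05% of all genes tested. For 4 genes, Col3a1, Lama4, Lamc3 and Nid1, this held in each of the 3 gates (10.5%, beside 0.252%). The lowest of the 3 gates exceeded the highest other gate by 2.25-fold for Col3a1 (1.25 to 4.53), 3.96-fold for Lama4 (2.84 to 5.66), 6.57-fold for Nid1 (5.76 to 7.51) and 7.48-fold for Lamc3 (6.41 to 8.76).

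The fibrillar collagens were led by the fibroblast gate, with 2 exceptions. Col1a1 and Col1a2, the chains of collagen I, stood at 72.9 CPM (lowest library 40.4, median 73.2, highest 98.0) and 218 CPM (163, 217 and 281), and at 24.4 and 51.2 CPM in mural nuclei, the next gate. For Col1a2 that was a 4.25-fold difference (3.41 to 5.37). Col3a1, which forms mixed fibrils with collagen I, had 116 CPM in the fibroblast gate (77.4, 114 and 140) and 32.7 CPM in mural nuclei (25.0, 28.5 and 47.4), with no overlap. Col5a1 and Col5a2, chains of the collagen V that starts and limits fibrils, had 41.2 and 121 CPM. Col5a1 was also present in excitatory neurons at 14.9 CPM (2.77-fold lower, 2.34 to 3.26), which held more UMIs per nucleus, and per nucleus the order of these gates turned. The share of nuclei with a UMI of Col1a1 was 11.9% in the fibroblast gate (9.98 to 14) and 2.68% in microglia at 2000 UMIs (20.6% and 4.10% unthinned, at medians of 3328 and 2629 UMIs). The part of free RNA in the low levels of collagen I elsewhere was not tested.

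Col5a3, the third chain of collagen V, was the first exception. It was highest in ependymal nuclei at 64.7 CPM (lowest library 44.7, median 66.1, highest 88.5), 3.83-fold above OPCs at 16.9 CPM (3.14 to 4.67), while the fibroblast gate had only 4.10 CPM. Col11a1, a chain of the collagen XI of cartilage fibrils, was the other: OPCs had 100.5 CPM (82.4, 103 and 124) and the fibroblast gate 90.2 CPM (65.6, 93.1 and 116). These ranges overlapped and the ratio of 1.11 had an interval of 0.998 to 1.25. Dividing nuclei came next at 78.1 CPM (75.0, 77.6 and 81.4), on 69 UMIs. The OPC level was 1.92-fold that of inhibitory neurons (1.77 to 2.07), at 52.4 CPM, in 6 of 6 libraries.

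Of the other collagens, 4 more were called in the fibroblast gate. Col23a1, a transmembrane collagen, had 484 CPM there (lowest library 392, median 497, highest 738), 8.40-fold above ependymal nuclei (7.10 to 10.0), with no overlap of libraries. Col6a2 and Col6a3, chains of the beaded filaments of collagen VI, were low but led by this gate, at 30.5 CPM (13.5, 32.2 and 50.3) and 21.4 CPM (9.43, 18.5 and 29.7), 4.71-fold and 4.10-fold above the next gates. Col6a1 differed: striatal neurons had 30.2 CPM and the fibroblast gate 30.3 CPM, a ratio of 1.00 (0.83 to 1.2) that fell below 1 under both other scalings. Col12a1, a FACIT collagen of tendon and fascia, had 71.5 CPM (38.7, 75.1 and 195), where library 6 stood apart at 195 CPM, and was 4.86-fold above the dividing gate (2.80 to 9.22), which held 13 of its UMIs, but it was not called on the scale of UMIs per nucleus. Col15a1, a collagen of vessel basement membrane zones, had 43.7 CPM in the fibroblast gate (29.9, 38.8 and 67.4) and 23.9 CPM in microglia (16.6, 25.1 and 29.2), a ratio of 1.83 (1.51 to 2.20), and microglia exceeded OPCs by 3.69-fold (2.94 to 4.67). Col18a1, the source of endostatin, had 39.6 CPM in the fibroblast gate and 25.3 CPM in choroid plexus, on only 24 UMIs.

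Beside Col4a3 and Col4a4, the choroid plexus gate led for Col8a1 and Col9a3. Col8a1, a short-chain collagen of subendothelial and corneal matrix, had 943 CPM there (lowest library 632, median 873, highest 1326) and 44.1 CPM in mural nuclei (30.7, 38 and 70.5), 21.4-fold lower (16.9 to 27.5). At 2000 UMIs per nucleus, 74.3% of choroid plexus nuclei (66.9 to 80.7) had a UMI of Col8a1, beside 1.31% of microglia (89.8% and 2.5% unthinned, at medians of 4944 and 2629 UMIs). Col9a3, a chain of the FACIT collagen IX of cartilage, had 469 CPM in choroid plexus (299, 446 and 663), followed by the oligodendrocyte lineage at 63.9 CPM in oligodendrocytes (26.2, 66.3 and 69.0) and 55.7 CPM in OPCs (44.6, 58.8 and 61.6). OPCs exceeded astrocytes in Col9a3 by 2.02-fold (1.84 to 2.22) in 6 of 6 libraries.

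**Figure D4:**
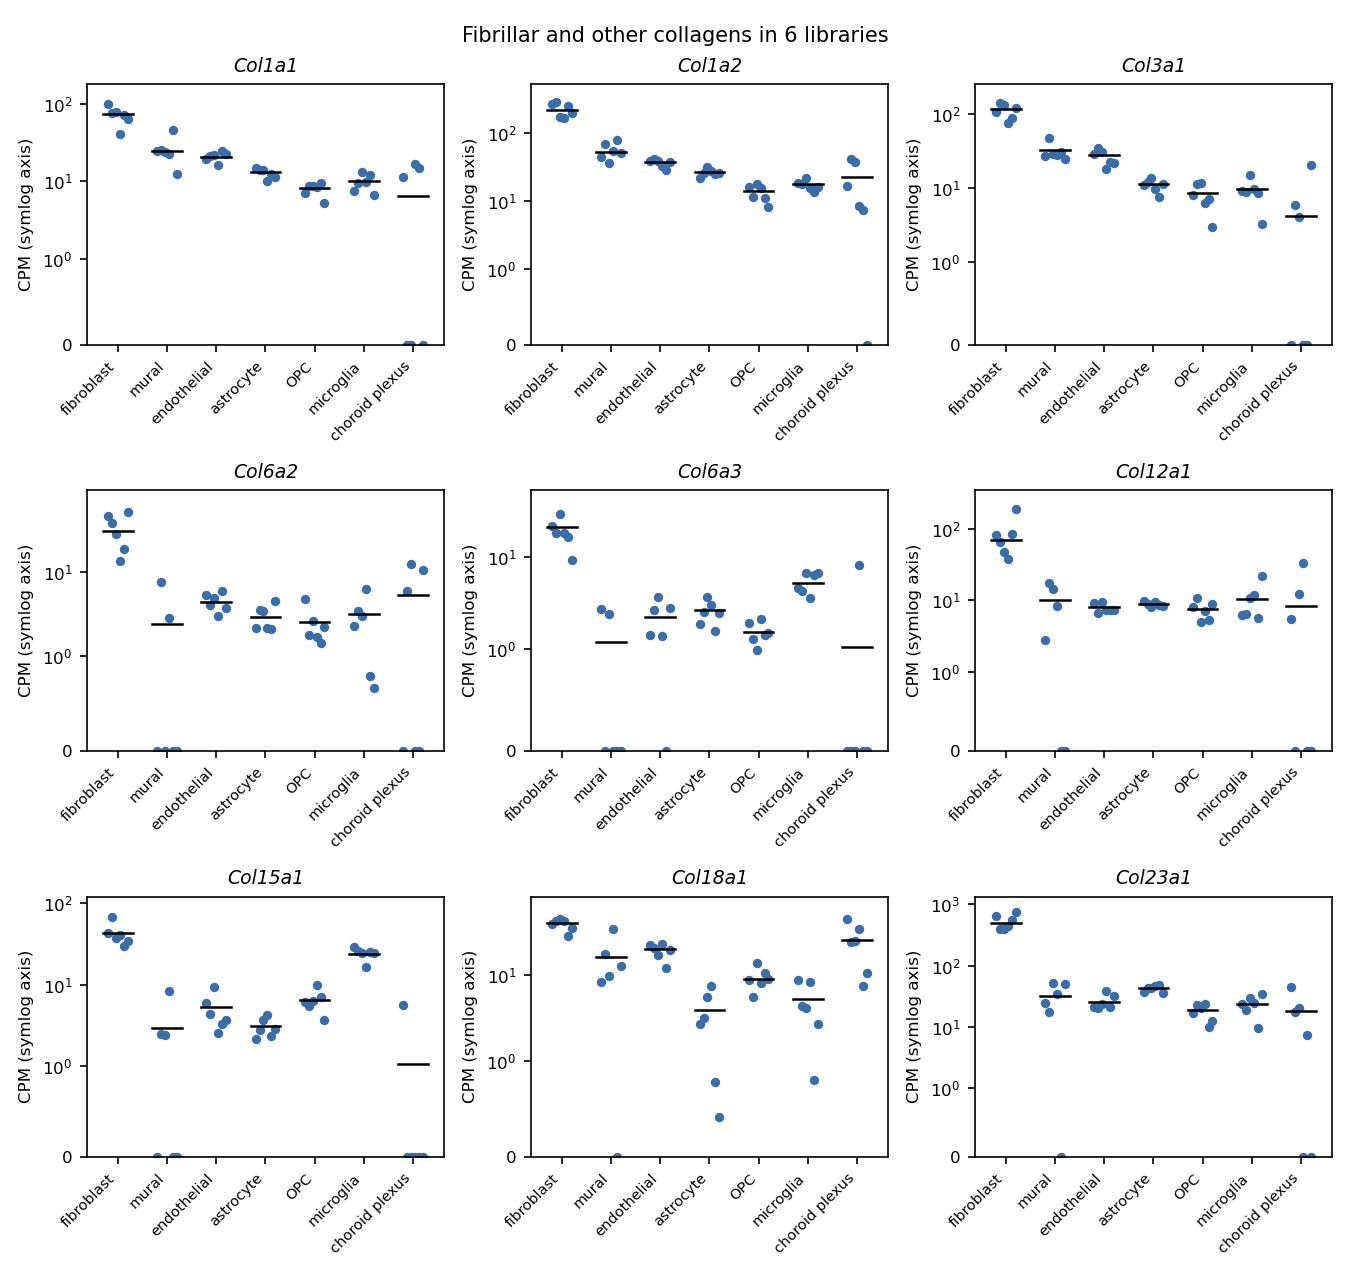
Level of 9 fibrillar and other collagen genes in 7 gates, in CPM on a symmetric log axis (linear below 1); each point is 1 of 6 libraries and each bar the sum over libraries. All 9 have their highest bar in the fibroblast gate, Col15a1 has its next bar in microglia at 23.9 CPM, and 1 library stands apart for Col12a1 at 195 CPM.

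Neuronal gates were low for most of the 38 genes but not for Col25a1, a transmembrane collagen made by neurons and known from amyloid plaques. Inhibitory neurons had 396 CPM of Col25a1 (lowest library 288, median 429, highest 466), striatal neurons 245 CPM and excitatory neurons 100.1 CPM, 2.44-fold below striatal neurons (2.36 to 2.53). The fibroblast gate had 377 CPM (238, 351 and 899), with library 6 at 899 CPM, and the ratio of inhibitory neurons to it was 1.05 (0.998 to 1.11). On the log2 scale that ratio was 0.07, and 0.21 (0.13 to 0.29) without library 6. At 2000 UMIs, 24.5% of inhibitory neuron nuclei (22.8 to 26.4), 22.5% of fibroblast-gate nuclei (20 to 25.2) and 16.5% of microglia had a UMI of Col25a1 (44.0%, 29.0% and 22.4% unthinned, at medians of 7496, 3328 and 2629 UMIs). The part of free RNA in its level outside the neuronal gates was not tested.

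Types of neurons were set apart by 1 marker gene each, with at least 2 UMIs of it and none of the other type markers of its gate. This left 354 Cux2, 201 Rorb and 434 Tle4 excitatory nuclei. It also left 1427 Adarb2 and 54 Lhx6 inhibitory nuclei, and 218 Drd1 and 1330 Drd2 striatal nuclei. Cux2 is used as a marker of upper cortical layers, Rorb of layer 4 and Tle4 of layer 6, but the layer of these nuclei was not checked. The median excitatory neuron nucleus had 4 markers of its own gate and 2 of striatal neurons. The pairs described were chosen after the values were seen. Col5a1 had 40.5 CPM in Tle4 nuclei (lowest library 32.6, median 39.9, highest 54.9) and 5.54 CPM in Cux2 nuclei (2.68, 5.62 and 7.66), with no overlap of libraries and a ratio of 7.30 (4.65 to 12.1). This level in Tle4 nuclei was close to the 41.2 CPM of Col5a1 in the fibroblast gate. Col12a1 had the same order, with 33.7 CPM in Tle4 nuclei (17.7, 30.2 and 57.9) and 4.75 CPM in Cux2 nuclei (2.68, 4.56 and 9.57), 7.08-fold apart (4.34 to 12.3). Col23a1 was 2.42-fold higher in Tle4 than in Cux2 nuclei (2.00 to 2.95), at 89.4 CPM (69.1, 85.7 and 139) against 37.0 CPM (15.2, 30.9 and 99.5), in 5 of 6 libraries. Col6a1 was likewise higher in Tle4 nuclei, by 2.42-fold (1.70 to 3.52). In contrast Col25a1 was lower in Tle4 than in Cux2 nuclei in 6 of 6 libraries, with 55.4 CPM against 93.2 CPM, a ratio of Cux2 to Tle4 of 1.68 (1.43 to 1.98).

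Col14a1, a FACIT collagen, was highest in the inhibitory neuron gate at 21.0 CPM (lowest library 11.9, median 17.5, highest 41.2), with 13.7 CPM in the fibroblast gate, and the ranges overlapped. Under both other scalings (TMM and UMIs per nucleus) it was called in inhibitory neurons, whereas its ratio to the fibroblast gate of 1.54 (1.17 to 2.05) on the CPM scale was above 1 in 4 of 6 libraries, and its interval came to include 1 with a lead of 3 markers and without library 1. Among inhibitory neurons it had 402 UMIs in Adarb2 nuclei, 35.5 CPM (lowest library 17.7, median 30.7, highest 77.7), and 1 UMI in the 54 Lhx6 nuclei, so that the ratio of 21.7 had an interval of 3.87 to 860. Col25a1, summed over libraries, was at 449 CPM in Adarb2 (274, 518 and 572) and 505 CPM in Lhx6 nuclei, a ratio of Lhx6 to Adarb2 of 1.12 (0.998 to 1.26). The few Lhx6 nuclei had no UMI of it in 2 of 6 libraries (lowest library 0, median 296, highest 898), and Lhx6 was the higher type in only 2 libraries. In the striatum it differed little between Drd1 nuclei, 266 CPM (130, 254 and 392), and Drd2 nuclei, 232 CPM (201, 223 and 282), in 4 of 6 libraries (1.15-fold, 1.05 to 1.25). That interval no longer lay above 1 without library 3 or without library 5. Types marked by Fezf2, Prox1 and Tcf7l2 and smooth muscle nuclei held too few nuclei to be described. By their markers 423 of the 441 mural nuclei were pericytes. The markers of the mural gate include every gene of the pericyte list but only Acta2 and Myh11 of the smooth muscle list. This share was thus largely set by the gate, and mural levels are mainly those of pericytes.

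**Figure D5:**
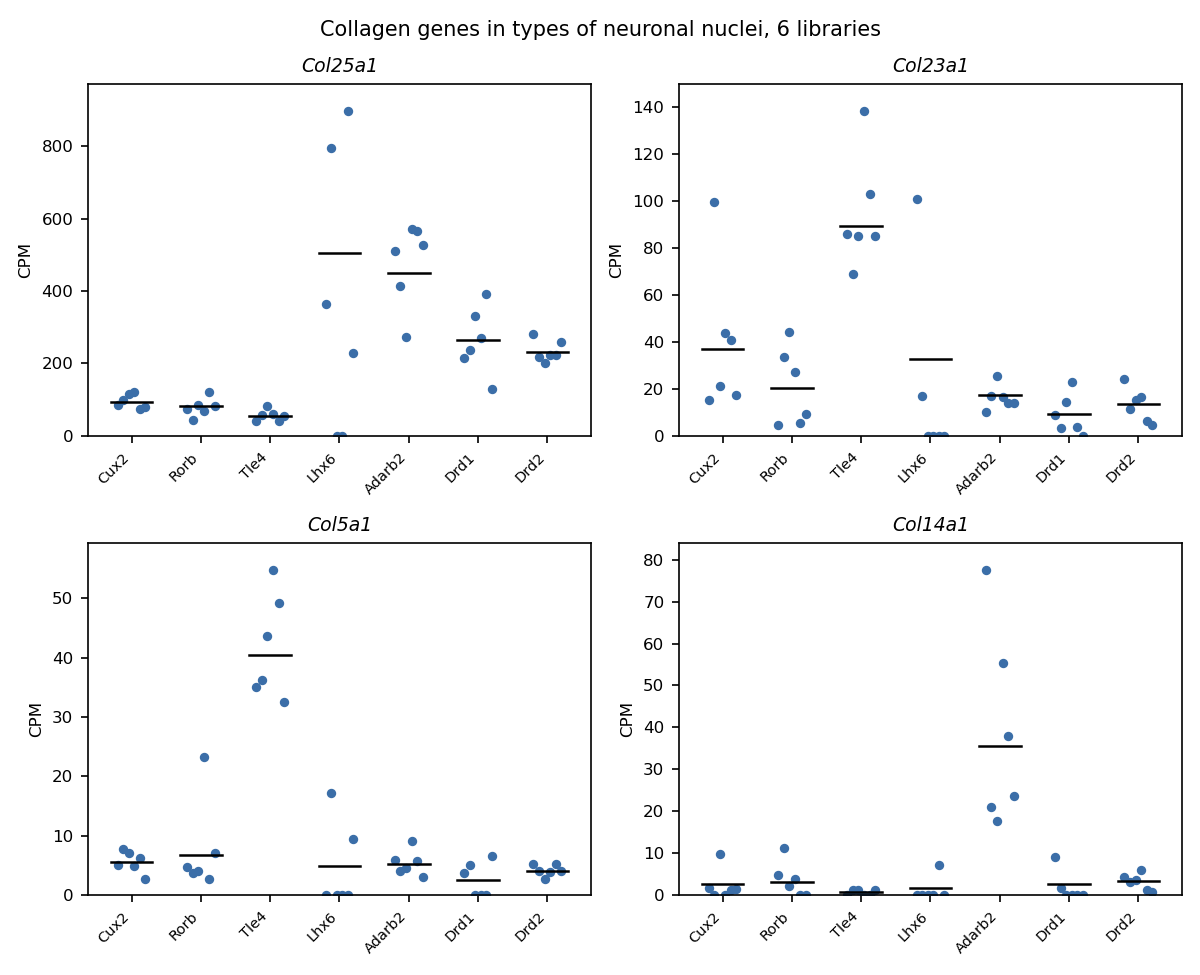
Level of 4 collagen genes in 7 types of neuronal nuclei, in CPM on a linear axis; each point is 1 of 6 libraries and each bar the sum over libraries. Col5a1 and Col23a1 are highest in Tle4 excitatory nuclei, at 40.5 and 89.4 CPM, Col14a1 in Adarb2 nuclei at 35.5 CPM, and Col25a1 has its highest bars in the inhibitory types; the Lhx6 points come from 2 to 17 nuclei each.

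Genes that act on these proteins were taken from 5 lists of 60 genes in all. Of these, 15 (25.0%) were called highest in a gate, beside 16.3% of all genes tested. By gate, 5 of the 60 were called in fibroblast (beside 1.49% of all genes tested) and 3 in choroid plexus nuclei (1.82%). Oligodendrocyte (1.52%) and ependymal nuclei (3.35%) had 2 each. Mural (0.554%), endothelial (1.63%) and striatal neuron nuclei (0.739%) had 1 each. The ependymal and endothelial counts lay near these shares, and counts of 1 or 2 genes do not set a gate apart. Of 12 enzymes that trim and crosslink collagens, 3 were called (25%). Adamts2, which removes the amino-terminal propeptide of fibrillar procollagens, was at 157 CPM in the fibroblast gate (lowest library 139, median 160, highest 179), 4.14-fold above the next gate (3.71 to 4.63), whereas its relative Adamts3 was called in striatal neurons at 280 CPM (4.09-fold, 3.94 to 4.26). Bmp1, the carboxy-terminal propeptidase, was called in oligodendrocytes at 107 CPM (2.80-fold, 2.60 to 3.02). Of the 10 enzymes and chaperones that modify and fold chains, 1 was called (10%, a share below that of all genes tested). This was Colgalt2 in endothelial nuclei at 74.7 CPM (2.17-fold, 2.02 to 2.35). Serpinh1, the collagen chaperone HSP47, was highest in endothelial nuclei at 66.4 CPM without a call.

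Of 13 receptors, 3 were called (23.1%, beside 16.3% of all genes tested). Ddr2, a receptor for fibrillar collagen, had 171 CPM in the fibroblast gate (lowest library 145, median 167, highest 245), 4.0-fold above mural nuclei (3.13 to 5.16). Its relative Ddr1 had 239 CPM in oligodendrocytes (143, 212 and 284), 2.06-fold above ependymal nuclei (1.83 to 2.33). Itgb4, a laminin-binding integrin chain, was called in ependymal nuclei at 36.7 CPM, 2.33-fold above oligodendrocytes (1.81 to 2.97). TMM and UMIs per nucleus raise oligodendrocytes (by 0.50 and 0.78 on the log2 scale) more than ependymal nuclei (0.10 and 0.34), relative to the fibroblast gate. Both take the lead of Itgb4 under 2-fold. Of 10 matrix proteases and inhibitors, 3 were called (30%). Mmp14 (46.2 CPM) and Timp3 (339 CPM) were called in the fibroblast gate, and Mmp2 in choroid plexus on 19 UMIs. The first 2 were 2.06-fold (1.76 to 2.41) and 2.37-fold (1.99 to 2.85) above the next gate. Relative to the fibroblast gate, TMM and UMIs per nucleus raise astrocytes, the next gate of Mmp14, by 0.22 and 0.32 on the log2 scale. Both take the lead of Mmp14 under 2-fold. Scaling by nuclei raises choroid plexus, the next gate of Timp3, by 0.55, with the same outcome. Calls of single list genes were not followed under the alternatives. Of the 15 other matrix genes, 5 were called (33.3%). Fras1 and Frem1, partners in the Fraser complex of epithelial basement membranes, were called in choroid plexus at 1242 and 330 CPM. Their levels were 4.28-fold (4.03 to 4.55) and 4.18-fold (3.49 to 5.01) above the next gate. Fbln1, a fibulin, was called in the fibroblast gate (89.5 CPM, 3.29-fold, 2.18 to 5.20), and Egflam, the dystroglycan ligand pikachurin, in mural nuclei (274 CPM, 2.13-fold, 1.88 to 2.41).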

How the data were processed

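Single-nucleus RNA-seq was performed by the authors on 6 forebrains. The deposited file is 1 matrix of UMI counts per gene and barcode for all mice, unnormalized. Its header names Cell Ranger 6.0.0, while the submitters' processing notes name Cell Ranger 2.1.1 and mm10, and the study's methods describe another aligner, filters for empty droplets and doublets, and imputation. How these relate, and whether intronic reads were counted, is not stated there. The chemistry stated in the labels is 3′ counting, so a level depends on where priming occurs.

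From the counts, 11 nuclei with at least 10% mitochondrial UMIs were left out, and the rest were placed in 13 gates by 10 markers each. Of the 42911 nuclei outside the gates, 29888 had fewer than 4 markers and 13012 a lead under 2. No doublet caller was run: a lead of 2 over every other list was required, which still admits nuclei with some markers of another type, and an alternative left out the 5% of nuclei with most UMIs per library. UMIs were summed per gate and library and scaled to CPM. The rule for calls was run on simulated counts, the outcome of which is not given here. Intervals were exact (Poisson, Clopper-Pearson) at 95%, with a floor of 3 counts. Shares of nuclei were thinned to 2000 UMIs, shallower nuclei being left out. The genes described were, per gate, up to 6 of highest ratio to all other gated nuclei with at least 50 UMIs, all collagen IV chains, and up to 3 per list; other members were added after their values were seen. The 38 members, the lists and the gates were chosen with earlier results of these data known. Gene positions came from GENCODE for GRCm38 and promoter sequences from RefSeq. Python 3.11.15, numpy 2.4.6, scipy 1.17.1, pandas 2.3.3 and edgeR 4.0.16 (for TMM factors only, an alternative scaling) were used. Alternatives were 3 or 5 markers, a lead of 3, TMM, UMIs per nucleus, a mitochondrial share under 1%, 4-fold calls, no filter on low counts, thinning to 1000 UMIs, and leaving out each library; those added after seeing the data left out barcodes found in several libraries, or libraries 5 and 6. A gene of the lists is not reported here.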

Additional observations from a re-analysis of the deposited data

Results flagged for a closer look

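Of 75 values over the 6 libraries that were examined (each gene in its highest and next gate where it had at least 50 UMIs, and 3 gate totals), 10 had 1 library far from the other 5 by Dixon's criterion. Chance alone flags about 1 of 20 where all values are equally precise. Here the libraries differed in nuclei, from 27 to 122 in the mural gate. The rate over other genes was not computed, so 10 of 75 is not shown to be an excess. In the mural gate, library 5, with 27 mural nuclei, was high for Col4a1 (843 CPM), Lama4 (414 CPM) and Lamb2 (92.0 CPM), and library 2 was high for Col3a1 (47.4 CPM). In the endothelial gate, library 5 was high for Col4a3 (23.8 CPM) and low for Lama1 (32.5 CPM). In the fibroblast gate, library 6, with 113 nuclei, was high for Col12a1 (195 CPM) and Col25a1 (899 CPM), and library 2 was high for Col15a1 (67.4 CPM). Library 6 was low for Col4a4 in the ependymal gate (12.2 CPM). The part of the small numbers of nuclei in these values was not tested.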

How the results depend on the processing

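All 17 calls were also made under 14 of 17 alternatives. No filter on low counts, 1 of the 14, could not change them, since all 38 genes passed that filter. Of the 17 calls, 16 were kept with TMM scaling (Col5a1 lost), 14 with UMIs per nucleus (Col5a1, Col12a1 and Lama3 lost) and 11 at 4-fold. With added calls, 20 genes were called with UMIs per nucleus. The share of all genes tested that was called in any gate is not given for these settings. In the fibroblast gate it was 1.21% with TMM, 0.966% with UMIs per nucleus and 0.798% at 4-fold (1.49% in the main setting). Calls were added for Col14a1 in inhibitory neurons (both other scalings), Lamb1 in choroid plexus (per nucleus), Col4a5 in the fibroblast gate (5 markers, a lead of 3, without library 1, 4 or 6) and Col5a2 there (3 markers, mitochondrial share under 1%, per nucleus, without library 1 or 6, and without libraries 5 and 6). With UMIs per nucleus, 4 genes were called in endothelial nuclei (Fn1, Agrn, Col4a2 and Lamb2), beside 1.89% of all genes tested on that scale (1.63% in CPM), and 1 in ependymal nuclei, beside 2.75% (3.35% in CPM). At 4-fold 0 were called in either gate, beside 0.764% and 2.01% of all genes tested. Leaving out each library gave 1 to 2 genes in the endothelial gate, beside 1.61% to 1.73% of all genes tested. Agrn was added there without library 4. Of 640 ratios between gates or neuron types under alternatives, 586 were counted as the same. Their interval excluded 1 in the same direction as before, or included 1 both times, whichever way the ratio lay. Another 35 had an interval that came to include 1, and 15 an interval that came to exclude it. The remaining 4 reversed, with at least 1 of the 2 intervals excluding 1. On the log2 scale the reversed ratios were Col6a1 in the fibroblast gate over striatal neurons (-0.58 with TMM, -1.04 with UMIs per nucleus), Col5a1 in the fibroblast gate over excitatory neurons (-0.12) and Nid1 in mural over endothelial nuclei (-0.23), both with UMIs per nucleus. Scaling by nuclei shifted every gene in a gate, relative to the fibroblast gate, by -0.02 in mural nuclei to 1.58 in excitatory neurons, and TMM by up to 0.64. With a lead of 3 markers the fibroblast gate fell to 652 nuclei, while the lead of the highest gate over the next was no longer beyond counting error for 9 genes (Col4a1, Col14a1, Col18a1, Lama2, Lama4, Lama5, Lamb1, Lamb2 and Lamc3). Col18a1 in the fibroblast gate over choroid plexus and Col25a1 in inhibitory neurons over the fibroblast gate crossed this bound under 10 and 9 alternatives. Thinning to 1000 UMIs gave 22.9% of fibroblast-gate nuclei with a UMI of Col4a6 and 55.7% of choroid plexus nuclei with a UMI of Col8a1.

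No paired analysis was possible because the barcodes are not tied to numbered mice. The alternatives for a comparison of WT with Npc1-/- were not run for the same reason. The dividing (171 nuclei), choroid plexus (167 nuclei) and mural (441 nuclei) gates held the fewest UMIs, and intervals do not cover the spread between mice.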
